A study of Mus musculus with 11 samples.

Results

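The 35 genes described here belong to the transcriptional response to low oxygen and to glycolysis. They are the oxygen-regulated transcription factor subunits Hif1a and Epas1, the oxygen-sensing enzymes Egln1 and Egln3, a set of hypoxia-inducible target genes, and the enzymes that take glucose to lactate. The members were found by symbol among the 32287 genes of the deposited tables, and all 35 were present. Aldoa is listed there as a pair of features. The one at 164 CPM (UMI counts of a gene scaled to a fixed total per class and mouse) in endothelial cells was used, and the other, at 0.136 CPM, was not.

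Single-cell RNA sequencing had been performed on brain vessels of 6 R182C-TgN3 mice (the Tg350 line, labelled CADASIL) and 5 WT-TgN3 mice (the Tg100 line, labelled control), with 1 library per mouse. CADASIL is a hereditary small vessel disease caused by variants in NOTCH3, a receptor of vascular smooth muscle cells and pericytes. A transgene of human NOTCH3 is present in both lines, mutant (R182C) in one and wild-type in the other, so neither group lacks it. The untreated mice were of both sexes, and 3 of each genotype were 6 months old, while 3 R182C-TgN3 and 2 WT-TgN3 mice were 9 months old. Vessel fragments were pulled down with beads against CD31, an endothelial surface protein, so smooth muscle cells and pericytes are those that came along with endothelium. The preparation batches of the 6-month mice held no 9-month mouse, and age and batch therefore cannot be told apart.

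In normal oxygen, EGLN enzymes hydroxylate the HIF-alpha proteins, which are then destroyed. When oxygen is low the HIF-alpha proteins escape this, pair with ARNT and bind a short DNA core motif near target genes, among them those of glucose breakdown, lactate export, mitophagy and vessel tone. The level of Hif1a or Epas1 mRNA therefore does not measure the activity of the protein. Glycolysis itself runs in every cell, and most of its steps have several isoenzymes whose use differs between cell types.

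Between 17550806 and 64215050 unique molecular identifiers (UMIs) were counted per library in 66658 barcodes. Cells were assigned from marker genes that are not members, which gave 37801 endothelial cells (EC), 2171 smooth muscle cells (SMC), 443 pericytes and 14415 microglia. Among the EC, 9975 were arterial, 15114 capillary, 7789 venous and 1781 positive for Plvap. UMIs were summed per mouse and class, and pericytes were fitted in the 9 mice with at least 20 of them, 6 R182C-TgN3 and 3 WT-TgN3. The SMC of a mouse held between 474869 and 3666358 UMIs and its pericytes, in those 9 mice, between 67383 and 387553, so that 1 UMI is worth 14.8 CPM in the pericytes of the shallowest mouse. The human NOTCH3 transcript was at 17.5 to 39.98 CPM in R182C-TgN3 and 2.53 to 9.22 CPM in WT-TgN3 libraries. Of 65086 distinct barcode sequences, 966 occurred in more than 1 library, and the 15 pairs of 6-month libraries shared 62 to 350 each against 5 to 38 in the other 40 pairs. Contrasts without these barcodes are given where the count of called members changed. Carry-over of RNA was read from 6 genes typical of each class: those of microglia stood in EC at 0.753% of their microglial level (median over the genes), and those of EC at 0.698% of their level in microglia and 1.92% in SMC. A member at or below what such carry-over would give is named as such. Carry-over between SMC and pericytes was not estimated, so their direct comparison has no such check. The RNA of a class is reported as a share of that class's UMIs, so a change in the RNA content of a cell cannot be told apart from a change in the gene.

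HIF proteins recognise the core ACGTG or GCGTG, and 31 of the 35 members had a promoter in the RefSeq table (GRCm38.p6, the same assembly as mm10). Epas1, Angptl4, Bnip3l and Ndrg1 were not in it. On either strand, ACGTG or GCGTG (read as CACGT or CACGC on the other strand) lay within 250 bases before a start of 29 of the 31 members, or 93.5%, and before a start of 41.5% of all 27025 genes in the table. Counted by start site, 36 of 46 member windows (78.3%) held it against 38.6% of all. Gpi1 and Tpi1 had no match in this window. The palindrome CACGTG, which other factors also bind and which counts on both strands at once, was found in 4 members (12.9%) and 6.86% of all genes. Base composition was not matched, and a match is a string of letters, not a shown binding site. Windows of 40 bases are printed for 6 members that the results below turn on, chosen with their values known and cut around a match. Ankrd37 and Adm were higher in capillary than in arterial and venous EC, and Bnip3 was lower in venous than in capillary EC. Hif1a was lower in arterial and higher in venous than in capillary EC. Hk2 and Pfkfb3 had the largest rises in microglia. The windows are read 5′ to 3′ on the strand of the gene, and the capitals mark the core motif. The windows are chr8:45999982-46000021 (minus strand) for Ankrd37, chr7:110627586-110627625 (plus) for Adm, chr7:138909592-138909631 (minus) for Bnip3, chr12:73907715-73907754 (plus) for Hif1a, chr6:82774484-82774523 (minus) for Hk2 and chr2:11502121-11502160 (minus) for Pfkfb3. None overlaps an exon of the GENCODE vM21 annotation. Those of Adm, Bnip3 and Hk2 lie upstream of the gene, and those of Ankrd37, Hif1a and Pfkfb3 lie before one start site and in an intron of the gene's annotated span. The windows of Ankrd37, Adm and Hif1a also lie inside Lrp2bp, Gm28863 and Gm15283, which are annotated on the opposite strand.
Ankrd37: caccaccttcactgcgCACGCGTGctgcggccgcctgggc
Adm: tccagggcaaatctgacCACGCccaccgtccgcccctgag
Bnip3: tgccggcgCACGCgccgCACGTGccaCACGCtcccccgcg
Hif1a: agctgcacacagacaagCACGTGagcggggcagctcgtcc
Hk2: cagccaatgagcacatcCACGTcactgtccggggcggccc
Pfkfb3: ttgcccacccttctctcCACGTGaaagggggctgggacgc

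The members together took 0.373% ± 0.0189 (SD, n = 11 mice) of the UMIs of EC, 0.325% ± 0.0123 of those of SMC, 0.301% ± 0.0203 of those of pericytes (n = 9) and 0.256% ± 0.0154 of those of microglia (n = 11). By mean CPM, 12 members were highest in EC, 7 in SMC, 6 in pericytes and 10 in microglia. Of the 6 in pericytes, Aldoa, Tpi1, Pgam1 and Pkm were higher in SMC once scaled by TMM, a call that library totals alone did not give, and Egln3 rests on 3 pericyte UMIs. Aldoc is highest in SMC through 1 mouse at 35.3 CPM, while its median there was 0.853 CPM. The EC group held Epas1, Egln1, 6 of the target genes (Angptl4, Ankrd37, Bnip3, Bnip3l, Ndrg1 and Hilpda) and the enzymes Hk1, Pfkl, Eno1 and Ldha. The microglia group held Hif1a, the targets P4ha1, Kdm3a and Mxi1, and Hk2, Pfkfb3, Pfkfb4, Ldhb, Pdk1 and Slc16a3. The mural groups held most of the enzymes from Gpi1 to Pkm, beside the targets Ddit4 and Adm. These UMIs are tags from the 3′ ends of transcripts without correction for gene length or capture, so levels are compared between classes within a gene and not between genes.

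**Figure D1:**
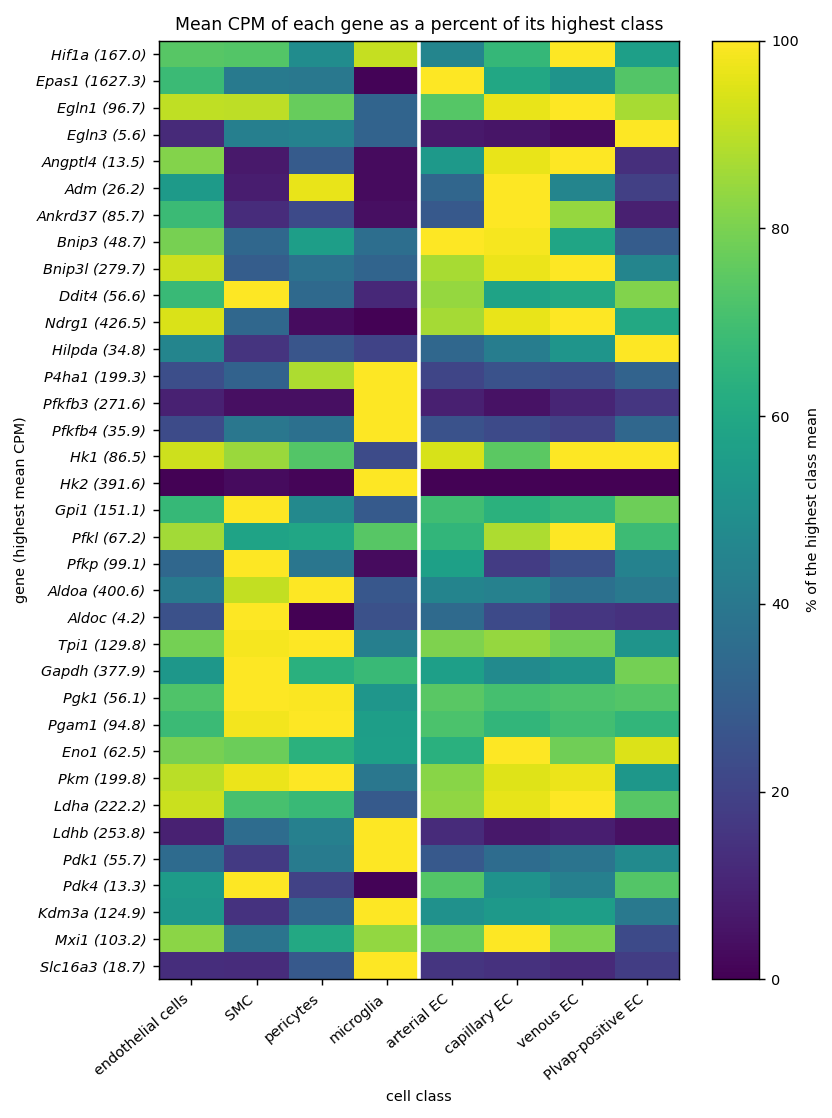
Mean CPM of each member in each class and endothelial subtype (columns), as a percent of its mean in the class where it is highest, which is given in CPM after the gene's name. The white line parts the 4 classes from the subtypes. Hk2 reaches 391.6 CPM in microglia and Epas1 1627 CPM in arterial EC, and each is close to 0% at the other's place.

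Microglia were compared with EC in the same mice. In edgeR's quasi-likelihood test with the mouse as a block, 12 of 34 members tested were higher in microglia (35.3%, beside 44.3% of all 12086 genes) and 20 were lower (58.8%, beside 42.0% of all genes), at an adjusted p under 0.05 over all genes. Aldoc was too low to be tested, and Pfkl and Pgam1 did not pass. The median log2 fold change was −0.52 over the members and 0.03 over all genes. Of the 32 called members, 30 differed in the same direction in all 11 mice (beside 81.1% of all called genes) and 27 had ranges that did not overlap (beside 65.5%). Fold changes are scaled by trimmed mean of M values (TMM), whose factors averaged 1.05 in EC, 0.931 in SMC, 1.27 in pericytes and 0.840 in microglia, and so are not the plain ratio of the CPM values.

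Epas1, which encodes HIF-2α and is known as the main HIF-alpha subunit of endothelium, ranged from 983 to 1253 CPM in EC (median 1101) and from 5.81 to 21.2 CPM in microglia (median 14.5). The ranges lay far apart, with a log2 fold change of −6.17 ± 0.13 (SE; adjusted p = 1.77e-34). The microglial mean of 13.4 CPM was above the 7.75 CPM that carry-over would give at the median of the 6 EC genes, but the lowest mouse was not. Those genes stood in microglia at 0.631% to 1.32% of their EC level, so microglial Epas1 is not clearly told apart from carry-over. Hif1a differed in the other direction than Epas1 and by less, with 106 to 147 CPM in EC (median 117) and 115 to 196 CPM in microglia (median 150), a log2 fold change of 0.52 ± 0.06. Its ranges overlapped, yet it was higher in microglia in 11 of 11 mice. Egln1, the main prolyl hydroxylase acting on HIF-alpha, was lower in microglia (31.2 ± 3.95 against 87.5 ± 7.52 CPM, log2 fold change −1.27), and Egln3, a hydroxylase that HIF itself induces, was higher (1.78 against 0.657 CPM, 1.81 ± 0.31) in 10 of 11 mice. Most of its 173 UMIs in EC lay in the Plvap-positive cells (5.60 CPM), and arterial, capillary and venous EC stood at 0.379, 0.320 and 0.173 CPM. Without the barcodes found in more than 1 library, Egln3 was too low to test and 11 members were higher.

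Among the hypoxia-inducible targets, Ndrg1, a gene of the response to hypoxia and cell stress, differed most. It ranged from 355 to 456 CPM in EC (median 395) and from 1.63 to 5.65 CPM in microglia (median 3.03), a log2 fold change of −6.79 ± 0.14. The mean in microglia, 3.32 CPM, is close to the 2.80 CPM that carry-over would give. Angptl4, a secreted inhibitor of lipoprotein lipase (log2 fold change −4.32 ± 0.23), Adm, the vasodilator peptide adrenomedullin (−4.01 ± 0.24), and Ankrd37, an ankyrin repeat protein (−3.73 ± 0.15), were likewise lower, and so were the mTORC1 inhibitor Ddit4 (−2.44), the mitophagy receptors Bnip3 (−0.91) and Bnip3l (−1.30) and the lipid droplet protein Hilpda (−0.98). The targets did not move as one set. P4ha1, a subunit of the collagen prolyl hydroxylase, was higher in microglia (199 ± 37.4 against 47.7 ± 12.8 CPM, log2 fold change 2.31), as were the histone demethylase Kdm3a (1.13) and, by 0.24, Mxi1, an antagonist of MYC. Mxi1 was higher in 6 of 11 mice, and with library totals as the only scaling it fell to −0.09.

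The enzymes at which glucose enters and is committed to glycolysis differed in either direction. Hk2, an inducible hexokinase, ranged from 249 to 591 CPM in microglia (median 375) and from 0.624 to 5.48 CPM in EC (median 1.66). The log2 fold change was 7.71 ± 0.16 (adjusted p = 1.43e-34), and since the 2.23 CPM in EC lie under the 2.95 CPM expected from carry-over, the fold change is set by a level that cannot be told apart from background. Hk1, the constitutive hexokinase, was lower in microglia (13.7 to 25.9 against 67.2 to 97.6 CPM, log2 fold change −1.82). Pfkfb3 and Pfkfb4, which set fructose 2,6-bisphosphate, the activator of phosphofructokinase, were higher in microglia by 3.70 ± 0.11 and 2.32 ± 0.08. Pfkfb3 ranged from 194 to 430 CPM there (median 231) and from 15.2 to 43.6 CPM in EC (median 21.7), without overlap. Pfkp, the platelet type of phosphofructokinase, was lower (−3.19 ± 0.15), whereas the liver type Pfkl did not pass (0.01 ± 0.08, adjusted p = 0.872). From glucose 6-phosphate down to pyruvate, Gpi1 (−1.02), Aldoa (−0.38), Tpi1 (−0.65), Pgk1 (−0.23), Eno1 (−0.29) and Pkm (−0.95) were lower in microglia, Gapdh was higher (0.57) and Pgam1 did not pass (−0.06).

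At the exit of the pathway the subunits changed places. Ldhb, the lactate dehydrogenase subunit typical of oxidative tissue, ranged from 187 to 336 CPM in microglia (median 259) and from 15.8 to 27.8 CPM in EC (median 22.7), a log2 fold change of 3.69 ± 0.10. Ldha, the subunit typical of lactate production, was lower in microglia (62.7 ± 6.73 against 204 ± 30.9 CPM, −1.47 ± 0.07). Slc16a3, the lactate exporter MCT4, was higher (18.7 ± 2.05 against 2.47 ± 0.557 CPM, 3.13 ± 0.12). Of the kinases that inhibit pyruvate dehydrogenase, Pdk1 was higher (1.73 ± 0.08) and Pdk4 lower (−5.51 ± 0.27), the latter on 9 UMIs in all microglia together.

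**Figure D2:**
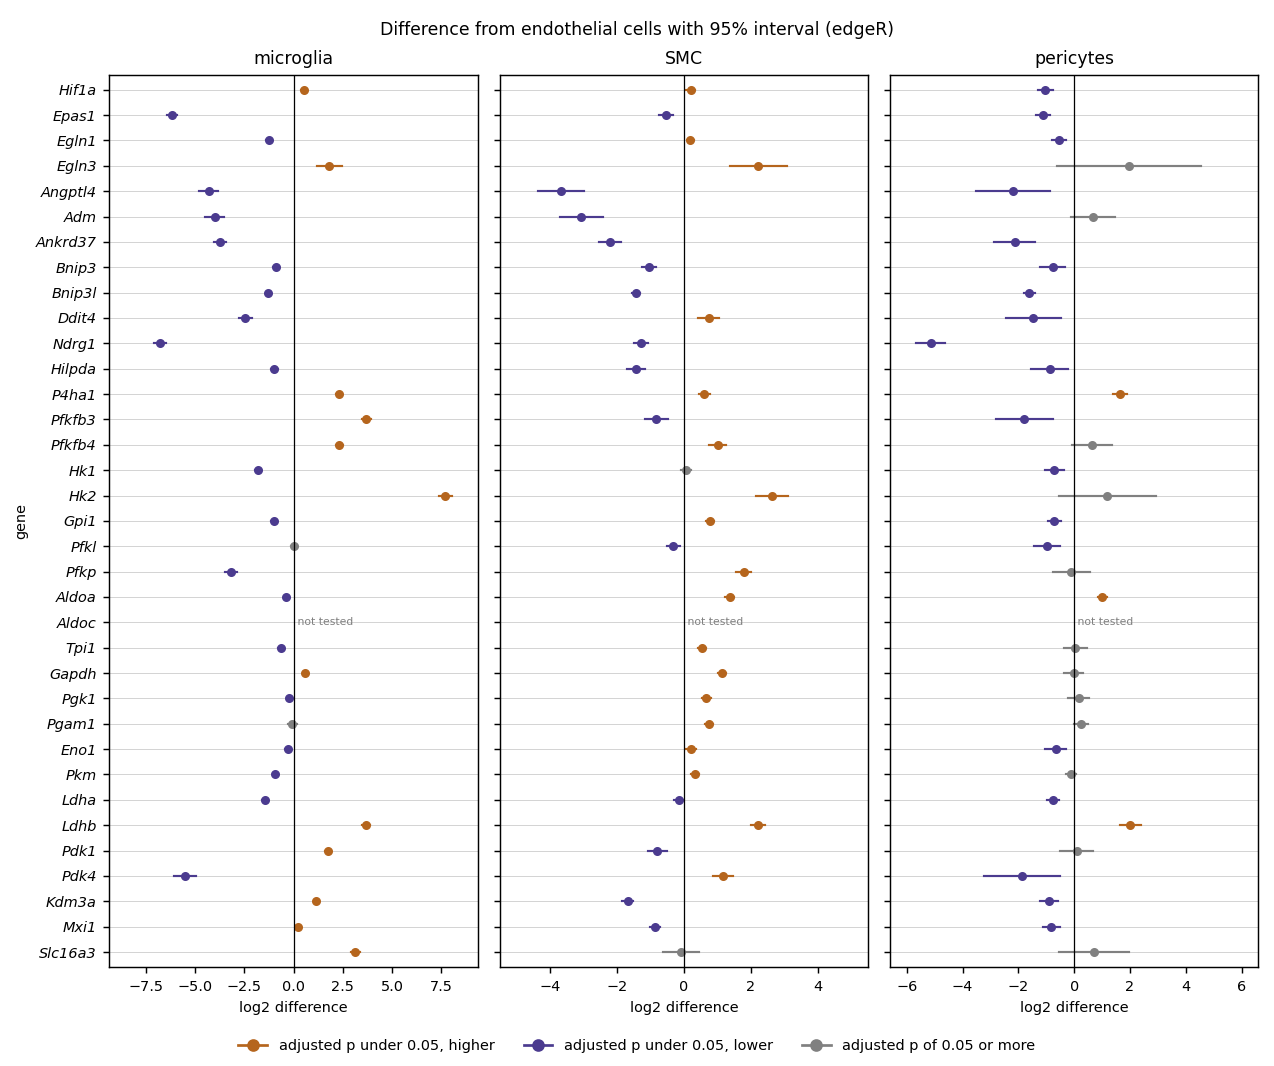
Log2 fold change of the members in microglia, SMC and pericytes against endothelial cells (points, with 95% confidence intervals of the edgeR fit). Hk2 lies at 7.71 in microglia and 2.64 in SMC, and Ndrg1 at −6.79 in microglia, −1.28 in SMC and −5.15 in pericytes.

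SMC were compared with EC in the same way. Of 34 members tested, 18 were higher in SMC (52.9%, beside 34.6% of all genes) and 14 lower (41.2%, beside 39.6%), with a median of 0.20 over the members and −0.05 over all genes. With 3 scalings (TMM, DESeq2 size factors and library totals) 15 of the 18 and 14 of the 14 were called, Hif1a, Egln1 and Eno1 being lost. Among the 32 called members, 24 had the same direction in all 11 mice (beside 71.6% of all called genes) and 18 had ranges apart (beside 52.3%). Without the barcodes found in more than 1 library, 17 were higher and 13 lower, Egln3 being too low to test and Ldha no longer passing.

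The enzymes of the glycolytic chain were higher in SMC at most steps. Aldoa, fructose-bisphosphate aldolase of muscle type, ranged from 146 to 200 CPM in EC (median 157) and from 297 to 426 CPM in SMC (median 361), a log2 fold change of 1.36 ± 0.06. Pfkp ranged from 26.5 to 51.2 CPM in EC (median 32.3) and from 71.6 to 146 CPM in SMC (median 102), a log2 fold change of 1.78 ± 0.11. Neither gene's ranges overlapped. Gapdh (1.13), Gpi1 (0.79), Pgam1 (0.74), Pgk1 (0.67), Tpi1 (0.54) and Pkm (0.32) were also higher, each in 11 of 11 mice, and Pfkl was lower (−0.32 ± 0.10). Ldhb was higher by 2.20 ± 0.10, with 68.5 to 115 CPM in SMC. Hk2, at 12.1 ± 4.71 CPM in SMC and above the 2.83 CPM of microglial carry-over, was higher by 2.64 ± 0.23, against the background level of EC noted above, and Hk1 did not pass (0.07 ± 0.08). Pfkfb4 was higher (1.02 ± 0.12) while Pfkfb3 was lower (−0.82 ± 0.17). Egln3 had the second largest rise (2.23 ± 0.42), from 0.657 to 2.41 CPM.

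The hypoxia-inducible targets of SMC were mostly lower. Ankrd37 ranged from 21.3 to 102 CPM in EC (median 55.6) and from 4.0 to 18.1 CPM in SMC (median 12.0), a log2 fold change of −2.20 ± 0.17. Adm (−3.06 ± 0.32), Angptl4 (−3.67 ± 0.34), Hilpda (−1.44 ± 0.13), Ndrg1 (−1.28 ± 0.10), Bnip3 (−1.03 ± 0.10), Bnip3l (−1.42 ± 0.06), Kdm3a (−1.68 ± 0.08) and Mxi1 (−0.87 ± 0.08) followed. Angptl4 rests on 11 UMIs in all SMC together and Adm on 28. The SMC median of Angptl4, 0.273 CPM, is close to the 0.211 CPM that carry-over of EC RNA would give. Exceptions were Ddit4 (0.74 ± 0.15) and P4ha1 (0.61 ± 0.08), which were higher in 10 of 11 mice each. Epas1 was lower as well (−0.53 ± 0.10), with 604 to 744 CPM in SMC. The kinases split again, with Pdk4 higher (1.17 ± 0.15) and Pdk1 lower (−0.80 ± 0.14). Slc16a3 did not pass (−0.08 ± 0.27).

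Pericytes against EC gave 3 members higher (8.82%, beside 17.6% of all genes) and 19 lower (55.9%, beside 32.4%) of 34 tested, with a median of −0.69 over the members and −0.23 over all genes. Pericytes had the largest TMM factor, and the split moved with the scaling. With library totals alone, 7 members were higher and 15 lower, and 3 and 15 were called under all 3 scalings. Ldhb ranged from 54.5 to 217 CPM in pericytes (median 108), above every EC value, with a log2 fold change of 2.02 ± 0.19. P4ha1 ranged from 106 to 261 CPM (median 164) against 34.1 to 70.5 CPM in EC, a rise of 1.64 ± 0.12, and Aldoa from 296 to 540 CPM (median 414), a rise of 1.00 ± 0.08. These members had ranges apart from EC and were higher in 9 of 9 mice. Of the 22 called members, 11 had 1 direction in every mouse (beside 50.7% of all called genes) and 7 had ranges apart (beside 42.2%). Ndrg1 was lower (−5.15 ± 0.26), with 20 UMIs in the pericytes of the 9 mice and a highest mouse of 79.4 CPM. Its ranges in pericytes and EC did not overlap. The mean of Ndrg1 in pericytes was 14.7 CPM and its median 8.78 CPM, beside 6.67 CPM expected from carry-over of EC RNA. The size of this fold change is therefore set by a level close to background. Ankrd37 (−2.13 ± 0.36), Hif1a (−1.04 ± 0.13), Epas1 (−1.11 ± 0.12), Bnip3l (−1.60 ± 0.10), Pfkfb3 (−1.79 ± 0.51), Gpi1 (−0.72 ± 0.12), Hk1 (−0.72 ± 0.17) and Ldha (−0.76 ± 0.11) were lower too. Pdk4 (−1.87 ± 0.67) rests on 3 pericyte UMIs and Angptl4 (−2.20 ± 0.65) on 4. Adm, at 25.4 ± 23.1 CPM in pericytes and 14.3 ± 4.93 CPM in EC, did not pass (0.66 ± 0.39, adjusted p = 0.157). Aldoc was listed at 0 in all pericytes.

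Of the mural classes directly compared, SMC were higher than pericytes for 18 members (52.9%, beside 26.1% of all genes) and lower for 4 (11.8%, beside 14.7%). This count turned on the scaling, since library totals alone gave 7 and 6, and the 7 members called higher under all 3 scalings were Hif1a, Ddit4, Ndrg1, Gpi1, Pfkp, Gapdh and Pdk4. Adm, P4ha1, Pdk1 and Kdm3a were lower under all 3. Ndrg1, at 99.0 to 187 CPM in SMC (median 142) and 0 to 79.4 CPM in pericytes (median 8.78), differed by 3.87 ± 0.29, against the pericyte level close to carry-over noted above. Gpi1 differed by 1.5 ± 0.12 and Ddit4 by 2.20 ± 0.46, each higher in SMC in 9 of 9 mice without overlap. The difference for Pfkp was 1.89 ± 0.28, for Gapdh 1.15 ± 0.08 and for Pdk4 3.05 ± 0.59. Adm was higher in pericytes (−3.72 ± 0.56), with 2.10 ± 2.52 CPM in SMC, and in the pericytes of single mice it rested on 0 to 18 UMIs. P4ha1 (−1.03 ± 0.13) and Kdm3a (−0.77 ± 0.21) were higher in pericytes in 9 of 9 mice, and Pdk1 (−0.88 ± 0.33) in 8 of 9. Over the members, 22 were called, 7 with the same direction in every mouse (beside 42.9% of all called genes) and 5 with ranges apart (beside 31.4%).

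The use of paired genes can be read without any scaling, as the share of a pair's UMIs that fell on one of them. Epas1 made up 89.9% (range over mice 87.6% to 92.2%) of Epas1 plus Hif1a UMIs in EC, 84.4% in SMC, 89.1% in pericytes and 8.27% (3.41% to 12.4%) in microglia. Hk1 made up 97.2% of Hk1 plus Hk2 in EC, 85.6% in SMC and 4.95% (3.47% to 6.29%) in microglia. The vascular classes and the microglia thus stood at opposite ends for both pairs. Ldha made up 89.7% (85.8% to 94.1%) of the lactate dehydrogenase pair in EC, 63.97% (58.7% to 70.0%) in SMC, 59.1% (42.0% to 75.0%) in pericytes and 19.99% (17.4% to 23.6%) in microglia. SMC and pericytes overlapped here, and neither overlapped EC or microglia. Pfkp made up 36.2% (29.1% to 46.8%) of Pfkp plus Pfkl in EC, 71.2% (62.1% to 79.1%) in SMC and 5.55% (2.71% to 14.6%) in microglia. Pdk4 made up 27.3% of Pdk4 plus Pdk1 in EC, 58.2% in SMC and 0.219% in microglia, and Pfkfb3 made up 73.6%, 44.8% and 87.7% of Pfkfb3 plus Pfkfb4 in the same order. Bnip3l made up between 78.9% and 87.0% of Bnip3l plus Bnip3 on average in the 4 classes. A share of UMIs is not a share of molecules, because capture can differ between the genes.

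**Figure D3:**
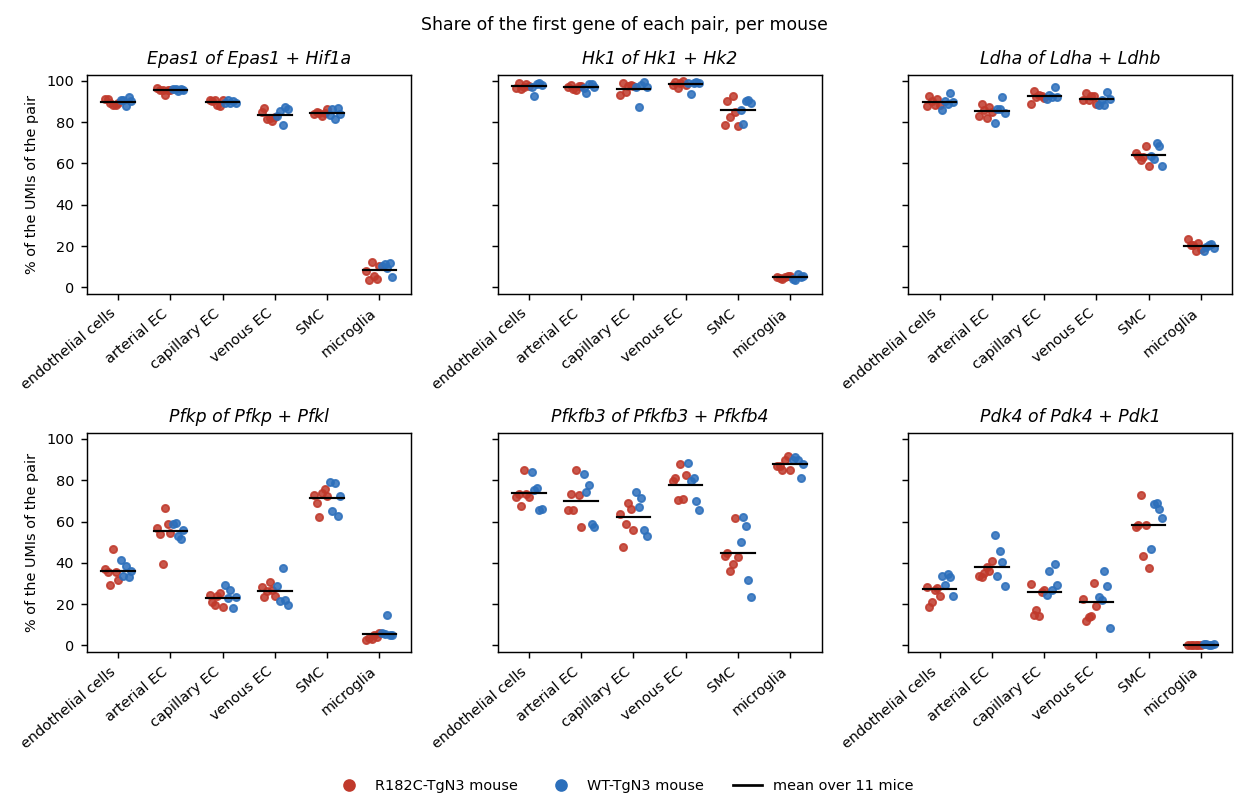
Share of the UMIs of 6 gene pairs that fell on the first gene (percent), 1 point per mouse coloured by genotype, with the mean as a line, in EC, their subtypes, SMC and microglia (pericytes are not drawn). Epas1 makes up 87.6% to 92.2% of its pair in EC and 3.41% to 12.4% in microglia, and Ldha goes from 89.7% in EC to 19.99% in microglia.

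A further list of 38 genes of oxygen sensing, glucose and lactate transport and alternative isoenzymes was counted beside the members. Of 30 tested in microglia against EC, 12 were higher and 13 lower, or 40% and 43.3% beside 44.3% and 42.0% of all genes. In SMC against EC 19 were higher and 5 lower (63.3% and 16.7%, beside 34.6% and 39.6%), in pericytes against EC 7 and 9 (23.3% and 30%, beside 17.6% and 32.4%), and in SMC against pericytes 13 and 3 (43.3% and 10%, beside 26.1% and 14.7%). Slc2a1, the glucose transporter of the blood-brain barrier, stood at 954 ± 96.3 CPM in EC and was lower in microglia (−3.07 ± 0.10), SMC (−4.26 ± 0.11) and pericytes (−5.20 ± 0.19). Slc16a1, the lactate carrier MCT1, stood at 297 ± 57.1 CPM in EC and at 5.29 and 4.19 CPM in SMC and pericytes, at or under the carry-over from EC. Slc2a3, the neuronal-type glucose transporter, was higher than in EC in SMC (4.07 ± 0.16), pericytes (3.55 ± 0.44) and microglia (3.55 ± 0.14). In the pericytes, Ndufa4l2 (a HIF-inducible protein of the respiratory chain) at 1048 ± 194 CPM and Cox4i2 (a hypoxia-related subunit of cytochrome c oxidase) at 588 ± 94.8 CPM were above SMC, where they stood at 144 and 91.1 CPM, and above EC, at 2.73 and 3.72 CPM. Hk3, a myeloid hexokinase, was at 37.7 ± 5.80 CPM in microglia and 0.605 CPM in EC, and the transcription factor Bhlhe40 at 2.95 and 128 CPM. Hif3a, Eno3 and Pgam2 were at 12.0, 6.07 and 10.1 CPM in SMC and listed at 0 in pericytes.

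Along the vessel tree, arterial EC were compared with capillary EC in the same mice. Of 33 members tested, 10 were higher in arterial EC (30.3%, beside 26.9% of all 11628 genes) and 17 lower (51.5%, beside 28.8%), with medians of −0.08 over the members and −0.02 over all genes. In 17 of the 27 called members all 11 mice had the same direction (beside 50.8% of all called genes), and 4 had ranges apart (Epas1, Egln1, Pfkl and Pfkp, beside 15.5%). Egln3 and Aldoc were too low to test. The subtype gates are less clear than those of the classes, since 20.7% of arterial, 7.89% of capillary and 32.6% of venous cells had just the number of markers needed, and median UMIs per cell differed, from 2584.5 to 5381 across mice in capillary and from 4628 to 12891 in venous EC.

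Of the members higher in arterial EC, Epas1 and Pfkp had ranges apart. Epas1 ranged from 1467 to 1781 CPM in arterial EC (median 1648) and from 872 to 1096 CPM in capillary EC (median 957), a log2 fold change of 0.73 ± 0.02 (adjusted p = 1.76e-21). Pfkp ranged from 34.8 to 91.2 CPM (median 54.5) against 12.3 to 22.1 CPM (median 18.1), a rise of 1.64 ± 0.10. Carry-over from SMC would account for 4.19 CPM of it at the median of the 6 SMC genes, which stood in arterial EC at 4.23% of their SMC level, with a spread from 0.307% to 19.3% between those genes. Ldhb (0.85 ± 0.09), Pfkfb3 (0.68 ± 0.10), Ddit4 (0.51 ± 0.09) and Hk1 (0.33 ± 0.04) were higher in 11 of 11 mice each.

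The members that were lower in arterial than capillary EC were led by Ankrd37 and Adm. Ankrd37 ranged from 9.89 to 43.8 CPM in arterial EC (median 19.2) and from 28.5 to 159 CPM in capillary EC (median 78.9), a log2 fold change of −1.87 ± 0.07. Adm ranged from 3.92 to 12.8 CPM (median 8.11) against 9.89 to 42.8 CPM (median 27.2), a difference of −1.61 ± 0.11. For both genes the ranges overlapped between mice, and the difference held within each of the 11 mice. Angptl4 (−0.79 ± 0.10), Eno1 (−0.65 ± 0.06), Hif1a (−0.56 ± 0.06), Pfkl (−0.42 ± 0.04), Egln1 (−0.40 ± 0.04) and Mxi1 (−0.39 ± 0.04) were lower in 11 of 11 mice as well.

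Venous against capillary EC gave 7 members higher (21.2%, beside 25.7% of all genes) and 12 lower (36.4%, beside 28.6%), with medians of 0.02 and −0.02. Pfkfb3 (0.92 ± 0.10) and Hif1a (0.55 ± 0.06) were higher in 11 of 11 mice, as were Hk1 (0.40 ± 0.04) and Pfkl (0.16 ± 0.04), while Pfkp (0.41 ± 0.11) and Ldhb (0.30 ± 0.09) were higher in 10. Adm (−1.17 ± 0.10), Bnip3 (−0.79 ± 0.06), Mxi1 (−0.35 ± 0.04) and Aldoa (−0.28 ± 0.03) were lower in all 11. Hk2 was also called lower (−0.75 ± 0.23), but its level in every EC subtype lay at or under the microglial carry-over, and Pdk4 was called lower at −0.39 ± 0.15. Of the 19 called members 0 had ranges apart (beside 10.1% of all called genes), and 9 had 1 direction in every mouse (beside 45.9%). Summed over 8 dissociation stress genes, of which none was at 0, capillary EC stood at 4654 to 10346 CPM in R182C-TgN3 and 5564 to 10544 CPM in WT-TgN3 mice. Venous EC stood at 7012 to 13764 and 8379 to 13575 CPM, and arterial EC at 6455 to 12728 and 7317 to 15045 CPM. The part of dissociation in the differences between subtypes was not tested.

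Read from arterial over capillary to venous EC, Hif1a went from 76.1 ± 12.4 to 111 ± 12.8 and 167 ± 31.2 CPM, while Epas1 went from 1627 ± 109 to 975 ± 68.2 and 845 ± 49.8 CPM. The share of Epas1 in the pair therefore was 95.5% (93.3% to 96.3%) in arterial, 89.8% (87.8% to 90.8%) in capillary and 83.5% (78.7% to 87.5%) in venous EC, with no overlap between these ranges. Adm was highest in capillary EC (26.2 ± 10.6 CPM) and lower on either side (8.68 ± 3.19 and 12.0 ± 4.90 CPM). Bnip3 stood at 48.7 ± 5.93 and 48.0 ± 8.31 CPM in arterial and capillary EC, a difference that did not pass (0.01 ± 0.05), and at 28.7 ± 4.66 CPM in venous EC. Pfkp made up 55.4% of Pfkp plus Pfkl in arterial, 23.1% in capillary and 26.3% in venous EC. In the further list, 6 of 26 tested were higher in arterial EC and 7 lower, or 23.1% and 26.9% beside 26.9% and 28.8% of all genes, with Vegfa, an endothelial growth factor, at 6.57 ± 1.84 CPM against 0.750 ± 0.489 CPM (3.03 ± 0.26) and Slc16a1 at 104 ± 22.8 against 444 ± 71.9 CPM (−2.12 ± 0.04). In venous EC 6 were higher and 7 lower (beside 25.7% and 28.6% of all genes), led by Pfkfb1 (0.96 ± 0.25) and Higd1a (−0.44 ± 0.04).

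**Figure D4:**
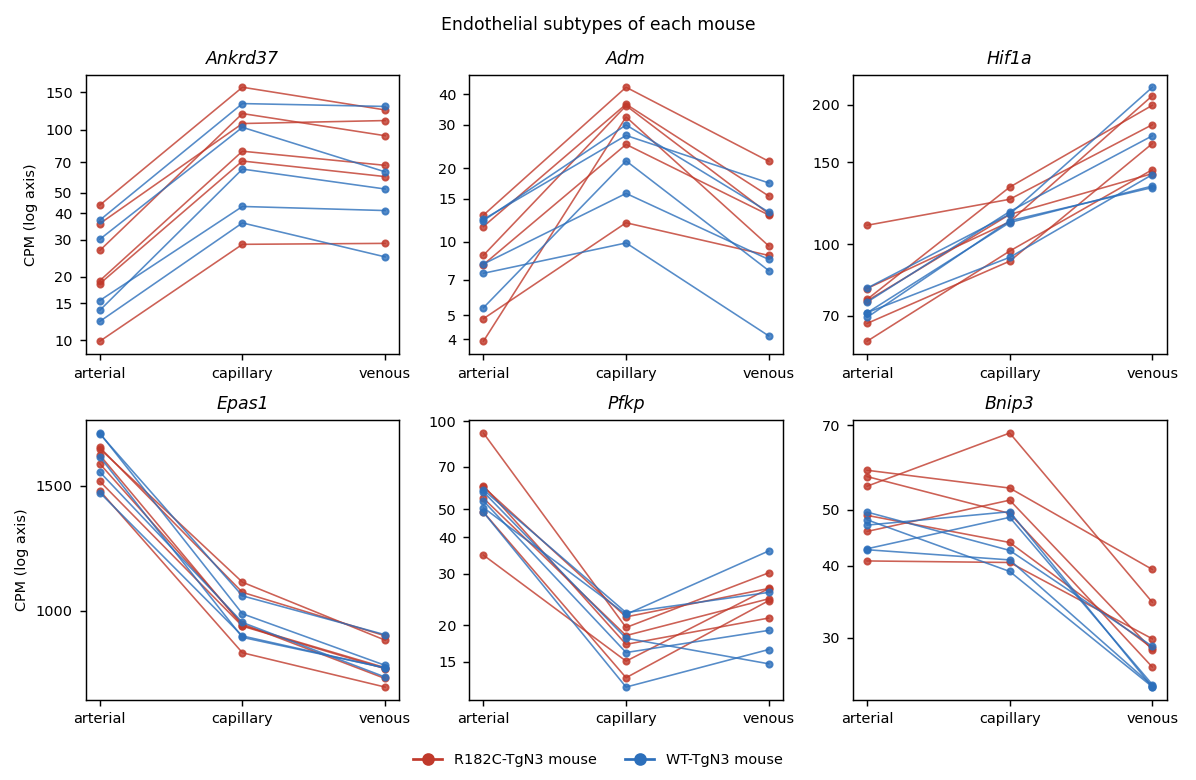
CPM (log axes) of Ankrd37, Adm, Hif1a, Epas1, Pfkp and Bnip3 in arterial, capillary and venous EC, with a line for each of the 11 mice coloured by genotype. Mean Hif1a goes from 76.1 over 111 to 167 CPM along this order, Epas1 from 1627 over 975 to 845 CPM, and Adm is highest in capillary EC, at 26.2 CPM.

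Levels were also read by age. In EC, Ankrd37 was at 21.3, 50.2 and 55.6 CPM in the R182C-TgN3 mice of 6 months and at 77.8, 102 and 85.9 CPM in those of 9 months. In WT-TgN3 it was at 23.4, 42.7 and 35.1 CPM at 6 months and at 57.6 and 89.8 CPM at 9 months. All 9-month mice lay above all 6-month mice, in both genotypes. In EC, 4 of 35 members had ages whose ranges did not overlap (beside 1.98% of all genes): Ankrd37, Ndrg1 (355 to 395 against 409 to 456 CPM), Egln1 (76.0 to 89.3 against 90.9 to 98.2 CPM) and Slc16a3 (1.74 to 2.37 against 2.38 to 3.72 CPM), each higher at 9 months. In arterial EC there were 3 (Adm, Ankrd37 and Ndrg1, beside 1.81% of genes), in capillary EC 3 (Ankrd37, Ndrg1 and Pkm, beside 1.86%), in venous EC 3 (Egln1, Adm and Ndrg1, beside 1.35%), in SMC 1 (Pfkl, beside 0.772%) and in microglia 0 (beside 1.30%). This comparison was made after the values had been seen and was not tested, and the subtypes are drawn from the same EC. Age and preparation batch cannot be told apart here.

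The study was designed to compare the genotypes, and no member passed the test between R182C-TgN3 and WT-TgN3 in any class. Of 35 members tested in EC, 29 in SMC, 13 in pericytes, 31 in microglia, 34 in arterial, 33 in capillary and 32 in venous EC, 0 passed an adjusted p of 0.05 with edgeR, and the smallest adjusted p was 0.957 (in pericytes). Over all genes, 0% passed in EC, 0.0112% in SMC, 0.0413% in pericytes, 0% in microglia, 0.00877% in arterial, 0% in capillary and 0% in venous EC. The gene that passed in SMC and in pericytes was human NOTCH3, higher in R182C-TgN3 (log2 differences 2.48 and 1.45). The R182C variant and the transcript level of the transgene therefore cannot be told apart between the genotypes. DESeq2 also called 0 members. At an unadjusted p under 0.05 there were 2 members in EC (beside 1.95% of all genes), 1 in SMC (2.47%), 0 in pericytes (6.08%), 1 in microglia (1.78%), 0 in arterial EC (1.48%), 5 in capillary EC (2.38%) and 2 in venous EC (1.42%). With 6 against 5 mice and 3 WT-TgN3 mice for pericytes, a p that misses the threshold does not show that the genotypes are alike, and the intervals below give the sizes that remain possible.

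In EC the smallest p belonged to Pfkl, the liver phosphofructokinase. It was at 55.5, 62.5, 64.7, 58.1, 60.7 and 61.2 CPM in R182C-TgN3 and at 52.1, 55.6, 56.5, 55.0 and 54.6 CPM in WT-TgN3 mice. The groups overlapped narrowly, with a log2 difference of 0.19 (95% interval 0.05 to 0.33, adjusted p = 0.9998 by edgeR). The mitophagy receptor Bnip3 was at 35.6 to 49.5 CPM (median 40.3) in R182C-TgN3 and 33.5 to 37.5 CPM (median 35.5) in WT-TgN3, a difference of 0.28 (0.07 to 0.49, adjusted p = 0.9998 by edgeR). In venous EC the smallest p was that of Bnip3 (0.31, 0.09 to 0.54), in capillary EC that of Pfkl (0.17, 0.02 to 0.31), beside Ldhb (0.47), Pdk1 (0.31), Bnip3 (0.30) and Adm (0.62), and in arterial EC that of Bnip3 (0.18). In all EC together the log2 difference was above 0 for 29 of 35 members, with a median of 0.14, where 51.1% of all genes were above 0 and their median was 0.0023. The further list had 16 of 31 above 0 in EC (median 0.02), and the members had 18 of 29 in SMC (0.03), 19 of 31 in microglia (0.03) and 8 of 13 in pericytes (0.05). In all EC the count of 29 lay between 26 and 31 over the alternatives, and was 27 of 35 with batch as a covariate. With that covariate it was 18 of 32 in SMC (median 0.03), 15 of 33 in microglia (−0.0086) and 5 of 16 in pericytes (−0.095). The subtypes gave 27 of 34 (arterial), 27 of 33 (capillary) and 28 of 32 (venous), and 23, 29 and 26 of 34 with batch as a covariate. Members share cells, libraries and regulation, so these counts are a description and not a test. Of the mice, 3 of 6 R182C-TgN3 and 2 of 5 WT-TgN3 were at 9 months. Ankrd37, Ndrg1, Egln1 and Slc16a3 were higher in EC at that age, and the part of age in these counts was not tested on its own. Each batch held mice of a single age, so the counts with batch as a covariate compare the genotypes within an age. RNA of red blood cells in EC, as the sum of 5 erythroid genes of which none was at 0, ranged from 2014 to 16840 CPM in R182C-TgN3 and from 2906 to 5317 CPM in WT-TgN3, and its part in these values was not tested.

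In SMC the smallest p belonged to Pdk4, which was at 7.09 to 14.7 CPM (median 12.1) in R182C-TgN3 and 9.33 to 19.6 CPM (median 15.0) in WT-TgN3, a difference of −0.44 (−0.88 to −0.01). In pericytes it belonged to Gpi1 (0.52), at 75.9, 94.0, 92.9, 94.4, 14.8 and 87.8 CPM in R182C-TgN3 and at 80.7, 54.5 and 44.1 CPM in WT-TgN3, values that overlap and rest on 1 to 36 UMIs a mouse. In microglia it belonged to Pfkp (−0.999, −1.78 to −0.21), at 1.52 to 3.41 CPM (median 1.81) in R182C-TgN3 and 2.21 to 9.35 CPM (median 3.17) in WT-TgN3, where 1 mouse at 9.35 CPM stood apart. In pericytes the genotype ranges of 1 of 35 members did not overlap, beside 2.31% of all genes with a UMI there. This was Pdk1, at 13.5 to 61.4 CPM against 8.83 to 13.4 CPM, which in each WT-TgN3 mouse is 1 UMI, and it was too low there to be tested. Of the WT-TgN3 mice with enough pericytes none was 9 months old, while the R182C-TgN3 mice were of both ages. Genotype differences in pericytes, those of Gpi1 and Pdk1 included, therefore cannot be fully told apart from age and batch. Dissociation stress genes summed to 6344 to 13355 CPM in EC, 14993 to 28400 in SMC, 252 to 4842 in pericytes and 12871 to 25297 in microglia, with overlapping genotypes. These sums differed between the classes, and the part of dissociation in the class contrasts above was not tested.

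**Figure D5:**
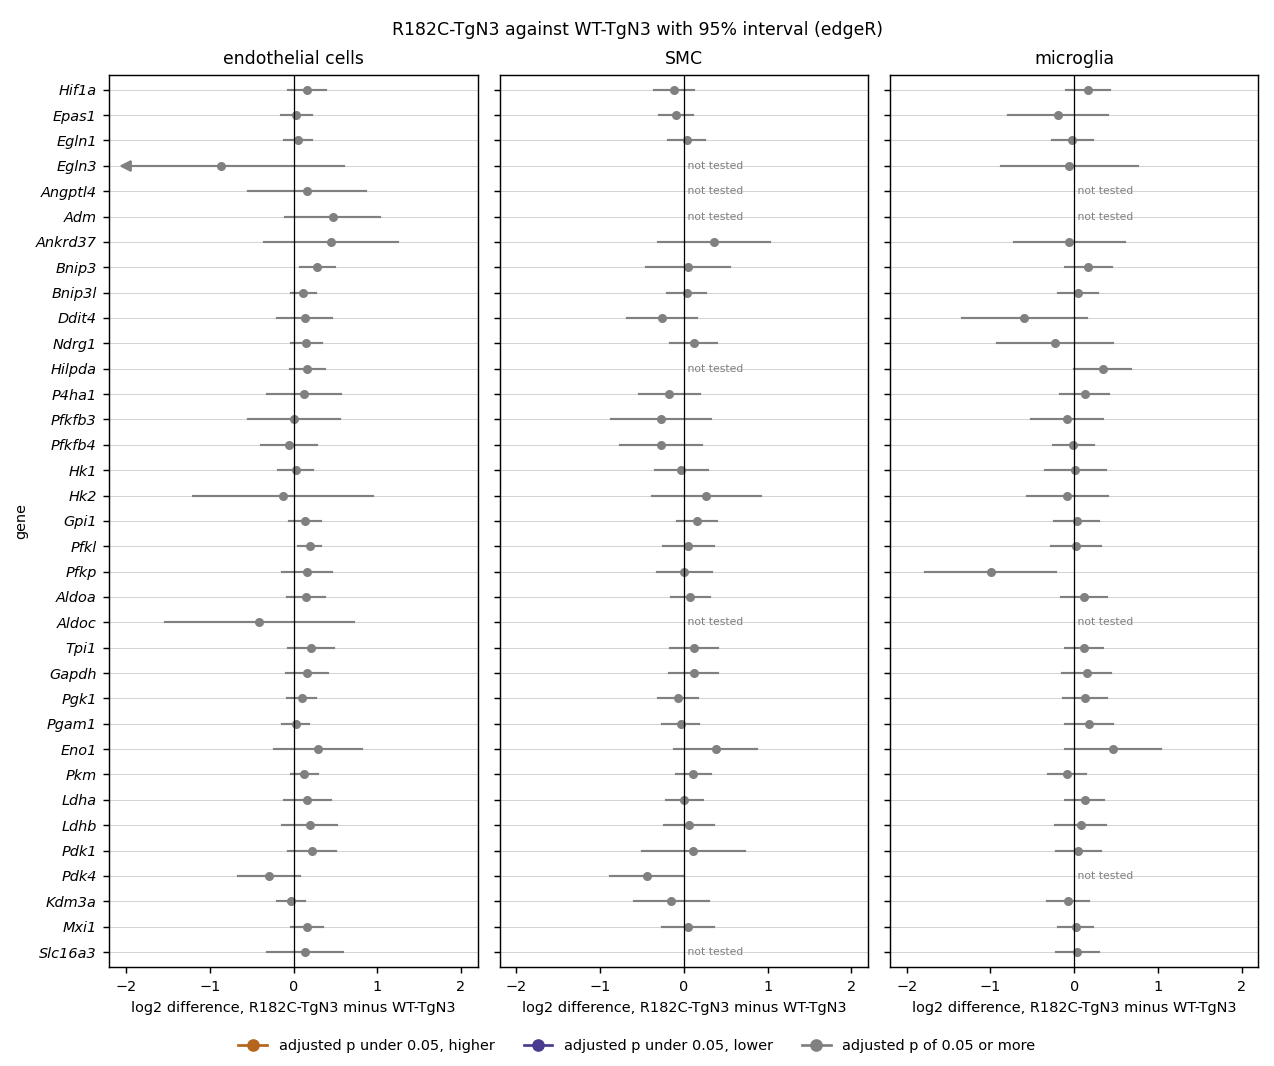
Log2 difference of R182C-TgN3 minus WT-TgN3 with its 95% interval (edgeR) for each member in EC, SMC and microglia; an arrow marks an interval that runs past the axis. All points are grey, since 0 members pass the adjusted threshold, and 29 of 35 lie above 0 in EC.

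Whether the genotype difference changed between 6 and 9 months was tested as an interaction. Of 35 members in EC, 29 in SMC and 33 in microglia, 0 passed the adjusted threshold with edgeR, beside 0.00715%, 0% and 0% of all genes. At an unadjusted p under 0.05 there was 1 member in each class, Egln3 in EC (−2.77, beside 2.75% of all genes), Pdk1 in SMC (−1.11, beside 2.37%) and Ddit4 in microglia (−1.25, beside 2.60%). Egln3 in EC was at 0.0973 to 2.85 CPM, so that this value rests on few UMIs. In pericytes the interaction could not be fitted, because none of the 9 mice was a WT-TgN3 mouse of 9 months. The further list gave 0 called genes in every genotype fit.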

How the data were processed

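Reads had been processed by the authors in Cell Ranger 7.0.0 against mm10 plus human NOTCH3, and they deposited UMI counts per gene and called barcode, unnormalized. The counts were checked to be whole numbers. Droplet 3′ counts carry no gene length. A barcode needed 500 or more detected genes, and no more than 10% of its UMIs could be mitochondrial (61625 passed). A cell was assigned to a class by at least 4 of 8 markers (3 of 7 for pericytes), with markers of every other type at most 20% of its own, which left 54830 cells. No clustering or doublet caller was used. Raw UMIs were summed per mouse (at least 20 cells), filtered with filterByExpr, scaled by TMM and tested with edgeR 4.0.16 in R 4.3.3, with Benjamini-Hochberg adjustment over all genes and a threshold of 0.05. Genes of ribosomal proteins, the mitochondrial genome and the Gm and Rik models did not enter the fits. Genotype was fitted within a class, and classes were compared with the mouse as a block. The mice are separate animals. DESeq2 1.42.0, other scalings, filters, gates and covariates, replicate blocks, shared barcodes and each mouse left out were alternatives. SE values were derived from the p-values. The fits were tested on simulated data.

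Same-numbered mice of 1 age deviated together in microglia (r from 0.170 to 0.337 across genes in 5 pairs) and not in every pair elsewhere (EC −0.0616 to 0.226, SMC −0.0854 to 0.0916, pericytes −0.0916 to −0.0431). Deviations were taken from the genotype mean over both ages, so they hold any shared effect of age and batch. Mice of 1 age with different numbers were not compared, so r cannot tell whether the replicate number marks a pair. Annotation came from GENCODE vM21, and promoter sequence from RefSeq. Reads of near-identical copies, such as Aldoart1 for Aldoa and Gapdhs for Gapdh, may be assigned to either. All 35 members were described. For each class contrast the 5 largest rises and falls past the threshold were named, and in each genotype fit the member with the smallest p. The members and lists were chosen with earlier results of these data known.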

Additional observations from a re-analysis of the deposited data

Results flagged for a closer look

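In 25 groups of 5 or 6 mice tested for a mouse far from the others, 3 values stood apart by Dixon's criterion. Chance alone gives this in about 1 of 20 independent groups. These groups were chosen by their genotype p and repeat genes over EC and its subtypes, so that rate is not a measure for them. Bnip3 in venous EC of WT-TgN3 was 29.0 CPM in the 9-month replicate 2, where the other 4 mice lay between 24.6 and 24.9 CPM. Gpi1 in pericytes of R182C-TgN3 was 14.8 CPM in the 6-month replicate 2, which is 1 UMI, where the other 5 lay between 75.9 and 94.4 CPM. Pfkp in microglia of WT-TgN3 was 9.35 CPM in the 6-month replicate 3, where the other 4 lay between 2.21 and 3.34 CPM.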

How the results depend on the processing

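No member was called between genotypes, or for genotype by age, in any of 213 alternative fits. Their smallest adjusted p was 0.345 (Eno1 in microglia with the replicate block in edgeR). The replicate block gave 0 called members in every class and so changed no call, and leaving out each mouse in turn also gave 0 to 0. Members higher in pericytes than EC numbered 7 instead of 3 with library totals alone, 6 with the looser gate and 6 with DESeq2, and those lower numbered 7 instead of 19 in WT-TgN3 mice alone. Members higher in SMC than pericytes numbered 7 instead of 18 with library totals alone and 6 in WT-TgN3 mice alone, where those lower numbered 1 instead of 4. In venous against capillary EC, WT-TgN3 mice alone gave 4 higher instead of 7 and 7 lower instead of 12, from fewer mice. Signs turned for Mxi1, microglia against endothelial cells (−0.0900), and Aldoa, SMC against pericytes (−0.0765), with library totals alone, and, in WT-TgN3 mice alone, for Pfkl, pericytes against endothelial cells (0.0719), Pdk1, SMC against pericytes (0.38), and Pfkl, SMC against pericytes (−0.32). The cause was not tested. Library totals moved the median over all genes from 0.03 to −0.29 (microglia against EC), −0.05 to −0.23 (SMC), −0.23 to 0.03 (pericytes) and 0.17 to −0.25 (SMC against pericytes). Leaving out each mouse gave, for higher and lower, 11 to 12 and 20 to 21 (microglia), 17 to 18 and 13 to 14 (SMC), 3 to 4 and 17 to 19 (pericytes), 16 to 19 and 3 to 4 (SMC against pericytes), 9 to 11 and 16 to 17 (arterial) and 6 to 8 and 9 to 12 (venous). Library totals and leaving out shared barcodes were chosen after seeing the data. Depth limits pericytes most, where 1 UMI can be worth 14.8 CPM. The pericyte interaction of genotype and age could not be fitted.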
